A study of Rattus norvegicus with 8 samples.

Results

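The calpain system genes measured here are Capns1, Capn2, Capn3 and Cast, and they were followed across all 8 arrays of a rat ligament study. Every probe set whose only gene symbol in the array's probe table was one of these 4 symbols was taken, which gave 12 probe sets for 4 of the 4736 genes that the table names singly. There were 3 probe sets for Capns1 (Entrez gene 29156), 1 for Capn2 (29154), 3 for Capn3 (29155) and 5 for Cast (25403). The genes were chosen with earlier results of these same arrays known, and which comparisons chose them was not stated. Their values in every comparison are therefore given as a description and without p-values.

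Calpains are cysteine proteases of the cytosol that calcium activates, and they cut their substrates at limited sites rather than degrading them whole. The conventional enzymes pair a catalytic subunit, encoded by Capn1 or Capn2, with a shared regulatory subunit encoded by Capns1. Cast encodes calpastatin, the inhibitor of these conventional enzymes. Capn3 encodes a calpain of skeletal muscle that binds titin and works without the shared small subunit. In fibroblasts, calpains cleave adhesion and cytoskeletal proteins such as talin during cell migration.

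Expression was measured in the medial collateral ligament, the inner side ligament of the knee, on one-colour oligonucleotide arrays, 2 for each of 4 groups. Unloaded healing rats had both ligaments disrupted and were suspended by the tail from 24 h after surgery, so that the hind limbs bore no weight. Loaded healing rats had the same injury and walked freely. Unloaded control rats were suspended without any sham operation, and loaded control rats had sham surgery and walked freely. All ligaments were taken at 3 weeks. Strain, sex and age, and whether a group's arrays came from separate animals, pools or repeats of 1 RNA, are not stated in the labels, so the errors below measure the spread between arrays, which may be technical. Each value is the signal intensity of a probe set, and in whole ligament fewer cells of a type and less RNA per cell cannot be told apart.

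Both arrays of unloaded controls differed from the other 6, and unloading and the missing sham operation are confounded between the control groups. Across probe sets the log2 signal of an unloaded control array correlated at 0.695 to 0.757 with the other arrays, against 0.822 to 0.894 among those 6. Their brightest 1% of probe sets began at signals of 5494 and 5584, against 9218 to 11289 on the other arrays. Of 15 ligament fibroblast markers 12 had a probe set (not Tnmd, Scx and Mkx), none of them was at 0 on any array, and their summed signal was 57177 and 73435 in unloaded healing, 110339 to 129288 in loaded healing, 6417 and 8205 in unloaded controls and 95352 to 115667 in loaded controls. Col1a1 was the largest part of that sum outside the unloaded controls, at 34753 to 84666 against 699.0 and 763.1 in unloaded controls. Each result that rests on the unloaded controls therefore stands beside a ligament marker signal far below that of the other groups, and the part of the arrays, of sham surgery and of tissue makeup in those results was not tested.

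Capns1, the regulatory subunit, differed between groups in a way that depended on the probe set. On U53859_at the signal was 2112 and 1580 in unloaded healing, 327.2 and 253.3 in loaded healing, 478.1 and 258.2 in unloaded controls, and 2500 and 1605 in loaded controls. Unloaded healing and loaded control ligaments were both high and overlapped, loaded healing and unloaded control ligaments were both low and overlapped, and the high and low pairs did not meet. Relative to loaded controls this probe set fell in loaded healing by 2.62 on the log2 scale (log2 -2.62 ± 0.39 SE, 95% interval -3.48 to -1.75, n = 2 arrays per group here and below), a level 6.14-fold lower. It rose 5.61-fold in unloaded against loaded healing (log2 2.49 ± 0.39). These are differences of log2(signal + 45.8), and "rose" and "fell" mark an adjusted p under 0.05 in a limma fit over 5244 probe sets. Since Capns1 was chosen with earlier results of these arrays known, for its probe sets these marks are a description and not a test.

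**Figure D1:**
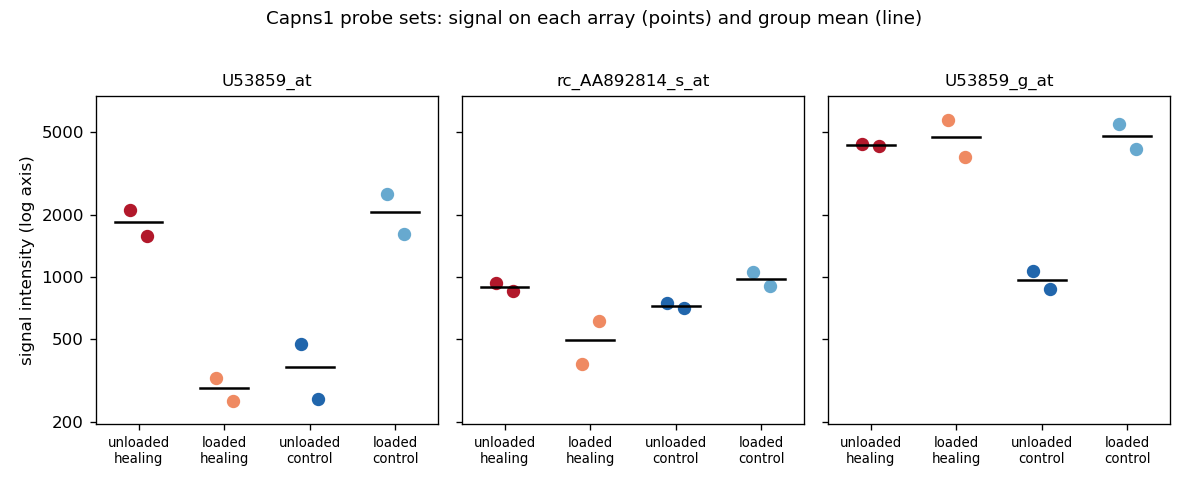
Signal intensity of the 3 Capns1 probe sets on each of the 8 arrays, on a log axis shared by the panels, with points for arrays and a line for the group mean. U53859_at was low in loaded healing and in unloaded control ligament, rc_AA892814_s_at followed the same order over a narrower range, and U53859_g_at was low in unloaded controls alone.

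The other 2 Capns1 probe sets gave smaller differences between loaded healing and loaded control ligament than U53859_at did. On rc_AA892814_s_at the signal was 933.7 and 856.4 in unloaded healing, 379.8 and 613.9 in loaded healing, 749.1 and 707.5 in unloaded controls, and 1057 and 904.0 in loaded controls. Loaded healing was the lowest group and did not overlap any other, and unloaded controls came next and did not overlap either neighbour, while unloaded healing and loaded controls overlapped. The log2 difference between loaded healing and loaded control was -0.95 ± 0.34 and that between unloaded and loaded healing 0.83 ± 0.34, and neither passed the threshold. Over the 8 arrays this probe set correlated with U53859_at at Pearson r = 0.784 and Spearman rho = 0.929, as a description of arrays that share their group.

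The remaining probe set, U53859_g_at, was designed from the same GenBank sequence as U53859_at and had a different profile. Its signal was 4383 and 4287 in unloaded healing, 5718 and 3777 in loaded healing, 1066 and 874.9 in unloaded controls, and 5469 and 4118 in loaded controls. The unloaded controls were below all other arrays, and the other 3 groups overlapped each other. In loaded healing against loaded control its log2 difference was -0.03 ± 0.25 (95% interval -0.58 to 0.52), where U53859_at had an interval of -3.48 to -1.75. Capns1 was chosen on a low loaded healing value, so setting these intervals side by side is a description and not a test. Over the 8 arrays it correlated with U53859_at at r = 0.515 and with rc_AA892814_s_at at r = -0.00196. The sequences of the probes were not used here, so which stretches of the Capns1 transcript the 3 probe sets read is not described.

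In the contrasts that use the unloaded controls, U53859_at and U53859_g_at moved alike. Against unloaded controls, unloaded healing was higher on U53859_at by 2.23 ± 0.39 and on U53859_g_at by 2.11 ± 0.25 log2 units, and both rose. Unloaded controls against loaded controls gave -2.36 ± 0.39 and -2.24 ± 0.25 on these probe sets, and both fell. On rc_AA892814_s_at the same differences were 0.28 ± 0.34 and -0.40 ± 0.34, and neither passed. Between unloaded healing and loaded control all 3 Capns1 probe sets lay within 0.13 log2 units of 0 (-0.12 ± 0.34 for rc_AA892814_s_at, -0.13 ± 0.39 for U53859_at and -0.13 ± 0.25 for U53859_g_at), and none passed.

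Capn2, the catalytic subunit of m-calpain, had its highest signal in loaded healing ligament, where U53859_at of its partner subunit Capns1 was low. On its single probe set, L09120_at, the signal was 429.6 and 301.8 in unloaded healing, 810.5 and 629.0 in loaded healing, 134.4 and 35.5 in unloaded controls, and 401.5 and 441.3 in loaded controls. Both loaded healing arrays were above all others and both unloaded control arrays below all others, while unloaded healing and loaded controls overlapped. The log2 difference was 0.70 ± 0.53 in loaded healing against loaded control and -0.90 ± 0.53 in unloaded against loaded healing, and neither passed. It was 1.75 ± 0.53 in unloaded healing against unloaded control and -1.95 ± 0.53 in unloaded against loaded control. These did not pass either, although the first did under quantile normalization and the second under 4 alternatives: quantile normalization, median centring, a variance prior with no intensity trend, and leaving out unloaded control 1. Between unloaded healing and loaded control it was -0.20 ± 0.53.

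The summed signal of macrophage markers was also highest in loaded healing. Of 21 listed, 15 had a probe set and 11 were tested, and 6 of these rose and 0 fell in loaded healing against loaded control, with 0 higher and 6 lower in unloaded against loaded healing. Of all probe sets 1.03% rose and 0.992% fell in the first of these comparisons, and 0.763% rose and 0.858% fell in the second. The summed macrophage marker signal was 11510 and 12260 in unloaded healing, 42870 and 52708 in loaded healing, 6580 and 7201 in unloaded controls, and 9685 and 10845 in loaded controls, and no marker was at 0. In loaded healing Lyz2 alone read 16260 and 13978, and Spp1 read 11380 and 7322. Not every marker followed the sum. Cd74 read 908.2 and 835.2 in unloaded healing, 918.5 and 854.6 in loaded healing, and 971.1 and 732.4 in loaded controls. The part of macrophages in the Capn2 and Capns1 levels of loaded healing was not tested.

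Cast, the calpain inhibitor, was read above the filter by 1 of its 5 probe sets. On X56729mRNA_at the signal was 434.7 and 483.4 in unloaded healing, 223.5 and 368.2 in loaded healing, 791.0 and 628.5 in unloaded controls, and 339.7 and 366.2 in loaded controls. The unloaded controls, where Capn2 was lowest, were highest here and overlapped no other group, unloaded healing came next without overlap, and loaded control and loaded healing overlapped. The log2 difference was 0.91 ± 0.43 in unloaded against loaded control, -0.57 ± 0.43 in unloaded healing against unloaded control, 0.59 ± 0.43 in unloaded against loaded healing, -0.26 ± 0.43 in loaded healing against loaded control and 0.34 ± 0.43 in unloaded healing against loaded control. None of these passed. The median log2 difference of all tested probe sets was 0.23 between unloaded and loaded controls.

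The other 4 Cast probe sets were among the dimmest 40% and were not tested. Over the 8 arrays their signal ran from 32.3 to 174.4 on rc_AA875089_at, from 38.2 to 327.6 on X56729mRNA_g_at, from 10.9 to 108.9 on Y13590_at and from 25.4 to 84.0 on Y13591_s_at. The highest reading of rc_AA875089_at and of Y13590_at was on unloaded control 1, that of X56729mRNA_g_at on unloaded healing 1 and that of Y13591_s_at on loaded control 2. No detection calls were used here, so whether these readings exceed background is not known.

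**Figure D2:**
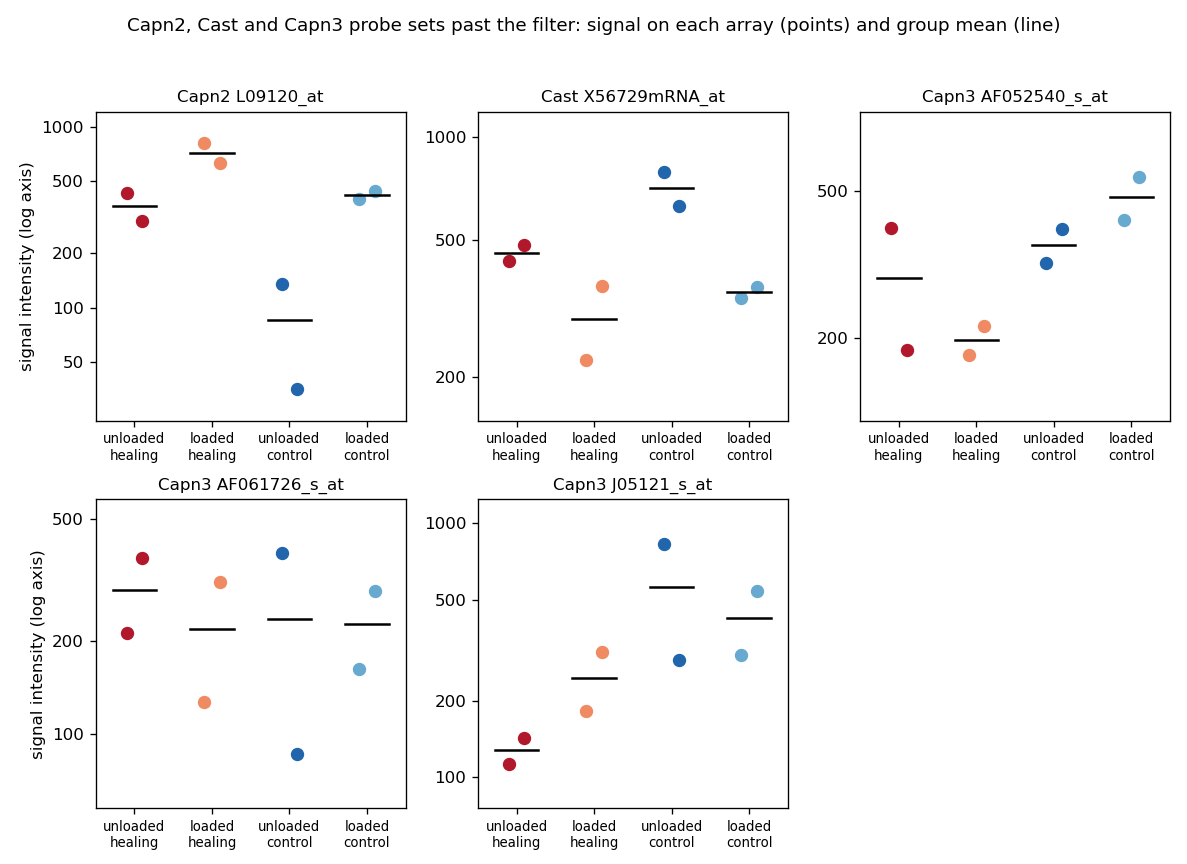
Signal intensity of the tested Capn2, Cast and Capn3 probe sets on each array, on a log axis per panel, with points for arrays and a line for the group mean. Capn2 was highest in loaded healing and lowest in unloaded controls, Cast was highest in unloaded controls, and the 3 Capn3 probe sets shared no order of groups.

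Capn3, the muscle calpain, had 3 tested probe sets that differed in their order of groups. On AF052540_s_at the signal was 397.1 and 185.6 in unloaded healing, 179.9 and 216.4 in loaded healing, 319.6 and 394.8 in unloaded controls, and 418.7 and 546.7 in loaded controls. Loaded controls were above all other arrays, and loaded healing was below both control groups but overlapped unloaded healing. On AF061726_s_at the groups all overlapped, with 212.6 and 372.4 in unloaded healing, 126.3 and 310.8 in loaded healing, 385.8 and 85.6 in unloaded controls, and 162.3 and 290.7 in loaded controls.

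On J05121_s_at the signal was 112.6 and 141.9 in unloaded healing, 181.1 and 310.5 in loaded healing, 828.8 and 290.0 in unloaded controls, and 302.0 and 540.4 in loaded controls. Unloaded healing was below all other groups, which overlapped each other. The largest log2 differences were -1.65 ± 0.60 for J05121_s_at in unloaded healing against unloaded control, -1.39 ± 0.60 for the same probe set against loaded control, and -1.11 ± 0.51 for AF052540_s_at in loaded healing against loaded control, and none passed. The correlations between the 3 probe sets over the 8 arrays ran from r = -0.16 to 0.392.

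Skeletal muscle markers were listed because Capn3 is a muscle gene. Of 33 listed, 27 had a probe set and none was at 0 on any array, and their summed signal was 19721 and 21945 in unloaded healing, 19704 and 26405 in loaded healing, 12568 and 13192 in unloaded controls, and 16775 and 17836 in loaded controls. The sum adds signals of different probes, including 9 genes that were not tested, and the part of muscle content in the Capn3 values was not tested. Of 18 muscle markers tested, 4 rose and 0 fell in unloaded healing against unloaded control, where 6.41% of all probe sets rose and 1.05% fell.

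Markers of other types were called in the same fit, and those named here were chosen after their values were seen. In loaded healing against loaded control 3 of 12 fibroblast markers fell (Comp, Pcolce and Bgn) and 1 of 18 muscle markers rose (Acta1). There 1.03% of all probe sets rose and 0.992% fell. Between unloaded and loaded healing 1 fibroblast marker rose (Pcolce), 2 fell (Col1a2 and Col3a1) and 1 muscle marker fell (Myh4). Of all probe sets 0.763% rose and 0.858% fell in that comparison. Pcolce, an enhancer of procollagen processing, read 1295 and 1338 in unloaded healing, 151.1 and 126.3 in loaded healing, 614.1 and 236.1 in unloaded controls, and 892.8 and 1236 in loaded controls. Like U53859_at it was higher in unloaded healing and loaded controls than in the other groups. As a list the 12 fibroblast markers went the other way between unloaded and loaded healing, with a median log2 difference of -0.73 against 0.06.

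Against unloaded controls, 7 fibroblast and 5 macrophage markers rose in unloaded healing and 0 of either fell, where 6.41% of all probe sets rose and 1.05% fell. Between unloaded and loaded controls 9 fibroblast, 2 muscle and 4 macrophage markers fell in unloaded controls and 0 of these rose. There 0.591% of all probe sets rose and 6.22% fell. Of the tested endothelial (7), smooth muscle (4), nerve (4), fat (2), red cell (2) and lymphocyte (3) markers, 1 was called in loaded healing against loaded control (Lpl, which rose) and 2 in unloaded against loaded healing (Lpl and Nos3, which fell). Nos3 fell and Hbb rose in unloaded healing against unloaded control, and in unloaded against loaded control Hbb fell. The part of these cell types in the calpain values was not tested.

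**Figure D3:**
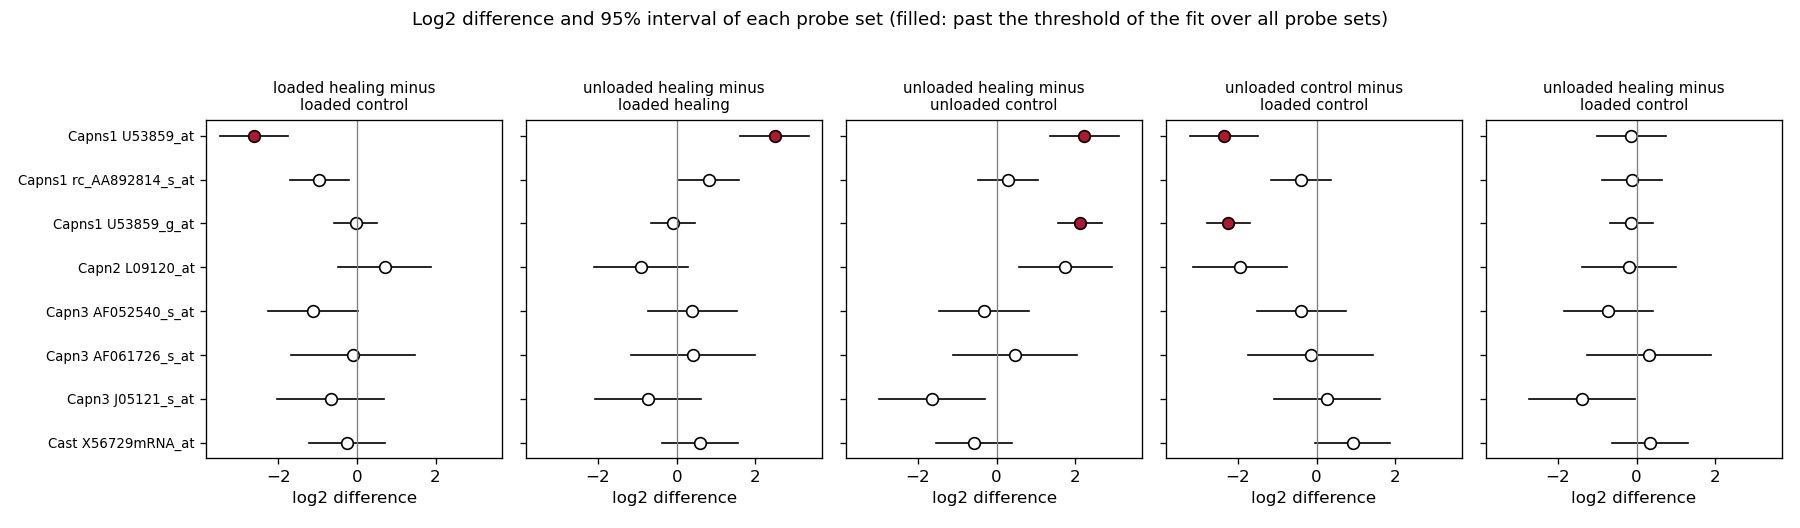
Log2 difference with its 95% interval (horizontal line) for each of the 8 tested probe sets in 5 comparisons, with filled points past the threshold of the fit over all probe sets. Filled points are Capns1 probe sets in every panel that has any, and the panel for unloaded healing minus loaded control has 0 of 8 filled.

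Counted over the 8 tested probe sets, calls came from Capns1 alone. The 4 dimmer Cast probe sets are not in these counts. Which comparisons chose Capns1 was not stated, so nothing is read from the counts of any comparison. In loaded healing against loaded control 0 rose and 1 fell, where 1.03% of all 5244 probe sets rose and 0.992% fell. In unloaded against loaded healing 1 rose and 0 fell, where 0.763% of all rose and 0.858% fell. In unloaded healing against unloaded control 2 rose and 0 fell, where 6.41% of all rose and 1.05% fell. In unloaded against loaded control 0 rose and 2 fell, where 0.591% of all rose and 6.22% fell. In unloaded healing against loaded control limma called 0 of the 8 (1 had an unadjusted p under 0.05), where 0.0572% of all rose and 0.0191% fell.

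Groups that did not overlap were common on these arrays, since each group has 2. In loaded healing against loaded control 1 of the 8 was higher and 3 were lower without overlap, against 19.4% and 20.3% of all probe sets. In unloaded against loaded healing 3 were higher and 2 lower, against 21.3% and 18.4%. In unloaded healing against unloaded control 4 were higher, namely the 3 Capns1 probe sets and Capn2, and 2 were lower, against 18.7% and 33.5%. In unloaded against loaded control 1 was higher, Cast, and 5 were lower, against 34% and 17.2%. In unloaded healing against loaded control 1 was higher and 2 were lower, against 17.6% and 14.6%.

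These comparisons share groups, so their values are not independent. The median log2 difference of the 8 was -0.46 in loaded healing against loaded control (all probe sets -0.03), 0.40 in unloaded against loaded healing (0.06), 0.37 in unloaded healing against unloaded control (-0.23), -0.39 in unloaded against loaded control (0.23) and -0.13 in unloaded healing against loaded control (0.01). The healing effect in unloaded rats minus that in loaded rats was 4.85 ± 0.55 log2 units for U53859_at and 2.14 ± 0.35 for U53859_g_at, and both were called higher, as were 4.52% of all probe sets, with 0.324% called lower. Capns1 was chosen with earlier results of these arrays known, so these calls are a description. For rc_AA892814_s_at it was 1.23 ± 0.48 and did not pass.

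The Capns1 calls in the loaded healing comparisons depended on single arrays and on the variance prior. In loaded healing against loaded control, U53859_at did not pass without loaded control 1, without loaded healing 1 or without loaded healing 2, nor with a prior that had no intensity trend, with log2 differences from -2.93 to -2.21 over 19 alternatives. In unloaded against loaded healing it did not pass without any 1 of the 4 arrays compared, nor without the intensity trend, with differences from 2.03 to 2.69. The calls of U53859_at and U53859_g_at in the comparisons with unloaded controls held under all 18 alternatives run for them.

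Array controls for beta-actin moved with U53859_at, and those for GAPDH did so less closely. The beta-actin 3' control read 4786 and 5235 in unloaded healing, 1353 and 1597 in loaded healing, 1284 and 1494 in unloaded controls, and 4393 and 4955 in loaded controls, which is the same division into high and low groups. Over the 8 arrays its log2 signal correlated with U53859_at at r = 0.937, with rc_AA892814_s_at at 0.750 and with U53859_g_at at 0.555. The 5'/3' ratio of the beta-actin control, which reflects RNA integrity and labelling, was 0.529 and 0.338 in unloaded healing, 0.363 and 0.237 in loaded healing, 0.964 and 0.634 in unloaded controls, and 0.360 and 0.392 in loaded controls. On the 3' control of GAPDH the signal was 1948 and 1872 in unloaded healing, 1039 and 842.6 in loaded healing, 1886 and 2283 in unloaded controls, and 2278 and 2335 in loaded controls, so it was low in loaded healing alone. Its log2 signal correlated with U53859_at at r = 0.601, with rc_AA892814_s_at at 0.761 and with U53859_g_at at -0.296. The GAPDH 5'/3' ratio did not set the unloaded controls apart, at 0.953 and 0.712 there and 0.729 to 0.896 on the other arrays. The part of RNA quality and labelling in the Capns1 values was not tested.

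The 3 probe sets of other genes closest to each Capns1 probe set, by Pearson correlation of log2 signal over the 8 arrays, differed between the 3. Closest to U53859_at were Rps10 (r = 0.96) and Rpl7a (0.949), both ribosomal proteins, and the transcription factor Nfix (0.955). Rps10 read 2921 and 3047 in unloaded healing, 813.5 and 649.5 in loaded healing, 605.7 and 527.0 in unloaded controls, and 2740 and 2746 in loaded controls. Closest to rc_AA892814_s_at were Nbl1, a secreted antagonist of bone morphogenetic proteins (0.968), gamma-actin, Actg1 (0.956), and the actin-nucleating Arp2/3 subunit Arpc1b (0.95). Closest to U53859_g_at were Cox7a2l (0.991), the ribosomal scaffold protein Rack1 (0.99) and the ribosomal protein Rpl27 (0.989). Each is the top of a search over all tested probe sets with 8 arrays that share their groups, and is a description only.

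**Figure D4:**
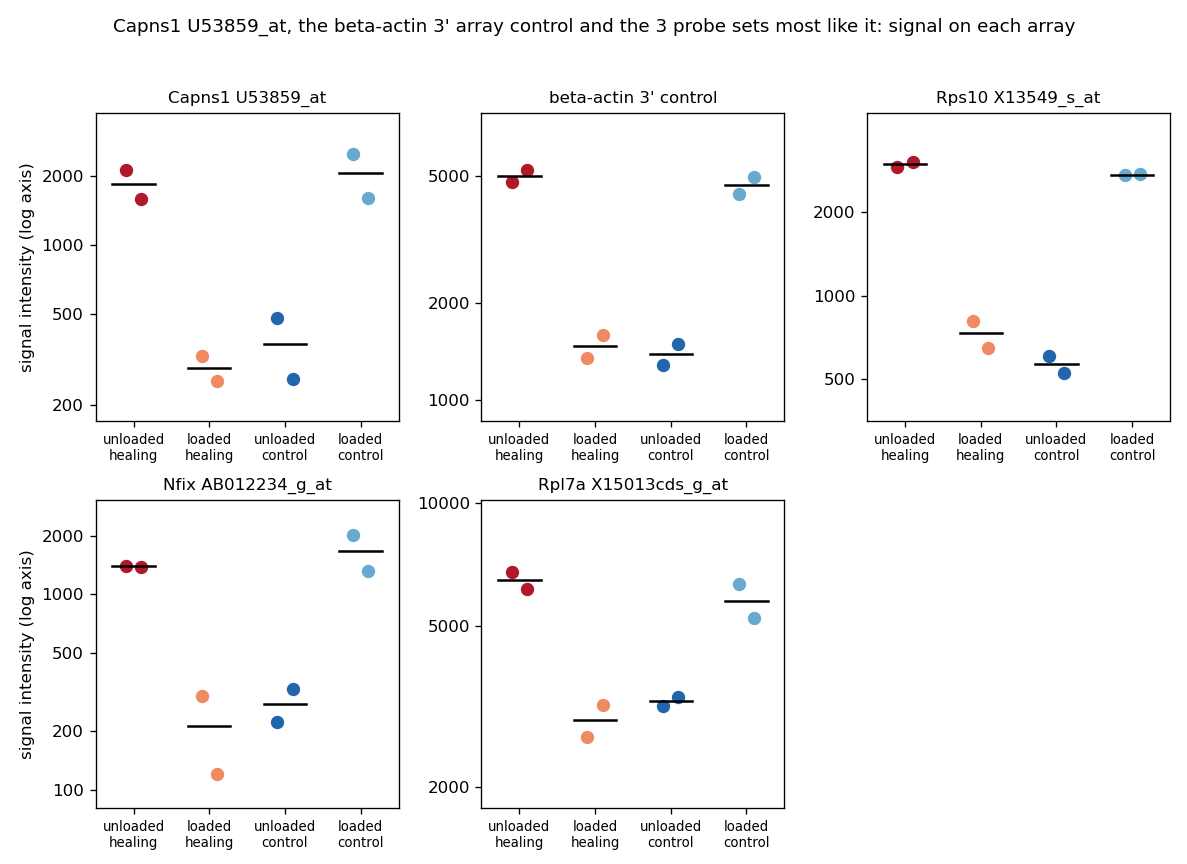
Signal intensity of Capns1 U53859_at, of the beta-actin 3' array control and of the 3 probe sets most like U53859_at (Rps10, Nfix, Rpl7a) on each array, on a log axis per panel, with points for arrays and a line for the group mean. In all 5 panels both unloaded healing and both loaded control arrays are above both loaded healing and both unloaded control arrays.

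Closest to Capn2 were Myl12a, a regulatory light chain of nonmuscle myosin (0.991), the endoplasmic reticulum translocon subunit Ssr4 (0.986) and the small GTPase Rheb (0.982). Myl12a read 2971 and 2294 in unloaded healing, 6472 and 5300 in loaded healing, 593.7 and 96.7 in unloaded controls, and 3576 and 2904 in loaded controls. Closest to Cast were the cytokine Il3 (0.973), the kinase Cdc42bpa (0.968) and the cytochrome oxidase subunit Cox6c (0.966). The closest profiles to Capn3 were Crybb2 (0.904), Pip (0.897) and Stat2 (0.896) for AF052540_s_at, Hbg1 (0.936), Lrpap1 (0.933) and Minpp1 (0.891) for AF061726_s_at, and Sult1c3 (0.975), Itih4 (0.956) and Slc12a4 (0.952) for J05121_s_at.

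Of 13 other calpain family genes listed, 4 had a probe set with a single symbol, and 0 of these 4 passed in any of the 6 contrasts with limma. Capn1, the catalytic subunit of mu-calpain and the other partner of Capns1, read 2197 and 2561 in unloaded healing, 1993 and 1500 in loaded healing, 1769 and 2198 in unloaded controls, and 2565 and 2145 in loaded controls. Loaded healing was below unloaded healing and loaded controls without overlap, with a log2 difference of -0.43 ± 0.24 from loaded control (limma adjusted p = 0.578) and of 0.45 ± 0.24 between unloaded and loaded healing (limma adjusted p = 0.572). Between unloaded and loaded controls Capn1 differed by -0.24 ± 0.24 (limma adjusted p = 0.648).

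Capn6, a calpain that lacks the catalytic cysteine, read 1179 and 1205 in unloaded healing, 1981 and 1171 in loaded healing, 492.7 and 570.1 in unloaded controls, and 1314 and 846.8 in loaded controls. The unloaded controls were again the lowest arrays, with log2 differences of 1.10 ± 0.34 in unloaded healing against unloaded control (limma adjusted p = 0.0939) and -0.94 ± 0.34 in unloaded against loaded control (limma adjusted p = 0.176). Capn8 and Capn9, calpains known from the stomach and gut, read 112.6 to 434.3 on the tested Capn8 probe set and 154.6 to 580.3 on the Capn9 probe set, and limma adjusted p was 0.529 or above for both in every contrast.

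**Figure D5:**
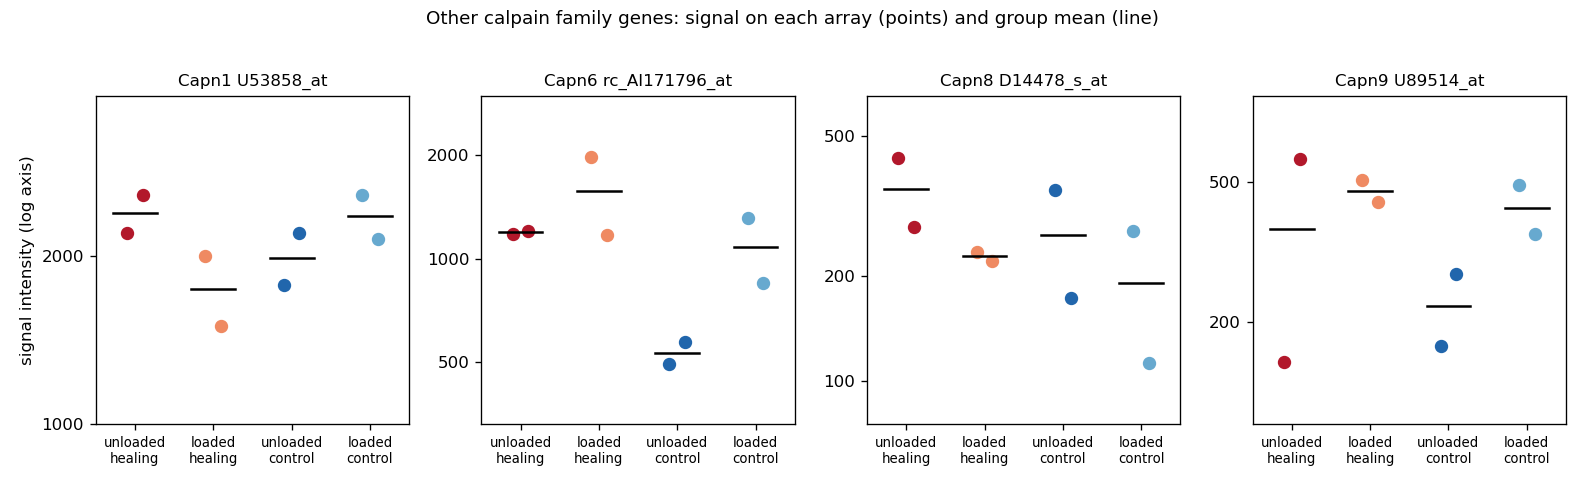
Signal intensity of the tested probe sets of Capn1, Capn6, Capn8 and Capn9 on each array, on a log axis per panel, with points for arrays and a line for the group mean. Capn1 spans 1500 to 2565 over the 8 arrays, and Capn6 is lowest on the unloaded control arrays, at 492.7 and 570.1.

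Known calpain substrates were counted in 2 lists. Of 42 cytoskeletal and adhesion substrates 23 were tested, and in loaded healing against loaded control 0 rose and 1 fell, with a list median of -0.26 against -0.03 for all probe sets. In that comparison 1.03% of all probe sets rose and 0.992% fell. The 1 that fell was gamma-actin, Actg1, on the probe set X52815cds_f_at, which read 498.6 and 867.9 in loaded healing and 2516 and 2995 in loaded controls (log2 -1.98 ± 0.28, limma adjusted p = 0.00607). The sequences of its probes were not used, so whether it also reads other actins is not known. Actg1 was also the 1 member that rose in unloaded against loaded healing (1.87 ± 0.28, limma adjusted p = 0.0111), with 0 lower and a list median of 0.45 against 0.06. There 0.763% of all probe sets rose and 0.858% fell. In unloaded healing against unloaded control 2 rose and 0 fell, and in unloaded against loaded control 0 rose and 2 fell, in each case the intermediate filament protein vimentin, Vim, and beta-actin, Actb. Of all probe sets 6.41% rose and 1.05% fell in the first of these comparisons, and 0.591% rose and 6.22% fell in the second. The counts are few and nothing about substrates as a set is read from them. Vim differed by 5.30 ± 0.40 and -5.73 ± 0.40 log2 units in these 2 comparisons, and Actb by 3.64 ± 0.24 and -4.04 ± 0.24 (limma adjusted p from 8.62e-07 to 6.56e-06). The Actb probe set, V01217_at, read 5688 and 5142 in loaded healing and 566.9 and 537.8 in unloaded controls. The beta-actin 3' array control read 1353 and 1597 in loaded healing and 1284 and 1494 in unloaded controls. These readings of beta-actin therefore differ in profile, and the reason was not tested.

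Of 37 signalling and other substrates 21 were tested, with 0 called in loaded healing against loaded control and 0 in unloaded against loaded healing by limma. Annexin A1, Anxa1, a calcium-dependent membrane-binding protein, was the 1 member called elsewhere. It read 937.9 and 624.7 in unloaded healing, 2131 and 1354 in loaded healing, 226.6 and 167.7 in unloaded controls, and 837.4 and 638.9 in loaded controls. It rose in unloaded healing against unloaded control (log2 1.75 ± 0.39, limma adjusted p = 0.0199) and fell in unloaded against loaded control (-1.69 ± 0.39, limma adjusted p = 0.0263). The share of all probe sets was 6.41% higher in the first comparison and 6.22% lower in the second.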

How the data were processed

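The deposited values are signal intensities per probe set for 8799 probe sets on 8 arrays, on a linear scale. The 2% trimmed mean of the deposited intensities was 500.3 to 500.6 on each array, so they were used as already scaled. Array medians over all probe sets were 250.8 and 286.2 in unloaded healing, 245.2 and 282.3 in loaded healing, 313.6 and 315.9 in unloaded controls, and 238.7 and 280.1 in loaded controls. Values are uncentred, and no label states the summary method. All 8 columns were used. The probe table of the array gave the symbols, and the 4 members' Entrez identifiers kept their symbols in the RefSeq table of assembly GRCr8. After setting aside 59 control probe sets, an offset of 45.8, the 10th percentile over all arrays, was added before log2, and the dimmest 40% by mean over all arrays were removed, which left 5244.

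limma 3.58.1 (R 4.3.3) estimated a mean for each group, with an intensity trend in the variance prior (4 residual and 5.81 prior degrees of freedom). Tests were two-sided, adjusted by Benjamini-Hochberg over all 5244 within a contrast, with a threshold of 0.05. The fit was also run on simulated data with independent normal noise, for loaded healing against loaded control only. Such data hold no outlying or technically repeated arrays, so nothing about those is concluded from them. The members, lists and alternatives were chosen with earlier results of these data known. Named genes were all members, the 3 closest profiles of each tested member, all other calpain genes and up to 4 called members of each substrate list. Marker lists were set for fibroblast, muscle, macrophage, endothelial, smooth muscle, nerve, fat, red cell and lymphocyte types. Alternatives were other scalings, offsets and filters, no trend, a replicate term, fewer groups and leaving out each array. The number of arrays limits the precision.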

Additional observations from a re-analysis of the deposited data

Results flagged for a closer look

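The interaction term of the limma fit over all probe sets was called higher on both Capns1 probe sets designed from the same GenBank sequence. It is the healing effect, healing minus control ligament, in unloaded rats minus that in loaded rats. On U53859_at the effect in unloaded minus that in loaded rats was 4.85 log2 units, made up of 2.23 in unloaded and -2.62 in loaded rats. Capns1 was chosen with earlier results of these arrays known, so the interaction may be partly fixed by that choice and is a description only. On U53859_g_at it was 2.14, made up of 2.11 and -0.03. The unloaded healing effect is measured against the unloaded control arrays in both cases, and the interaction was called higher for 4.52% of all probe sets. Unloaded controls had no sham operation and loaded controls had one, so the baselines of the healing effects differ. On U53859_g_at the unloaded controls alone were low, with a mean log2 signal of 9.98 against 12.10 to 12.23 in the other groups. The part of the unlike controls in the interaction was not tested. The U53859_g_at call was lost under spike-in scaling and without the intensity trend. On rc_AA892814_s_at, the other Capns1 probe set, the interaction was 1.23 ± 0.48 and did not pass.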

How the results depend on the processing

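Counts over all probe sets depended on the processing, and the causes were not tested beyond what a setting itself removes. In loaded healing against loaded control limma called 106 probe sets, with 64 under median centring, 70 without a filter, 29 without the intensity trend and 27 to 94 when 1 array was left out. In unloaded against loaded healing it called 85, with 42 under median centring, 137 under spike-in scaling, 16 without the trend and 25 to 83 with 1 array left out. Quantile normalization gave 630 calls (390 higher, 240 lower) in unloaded healing against unloaded control, against 391 (336 and 55), and 591 (206 and 385) in unloaded against loaded control, against 357 (31 and 326). In unloaded healing against loaded control 4 were called, with 1 under median centring, spike-in scaling, no filter, the compared groups alone or a fit without the unloaded controls, 0 without the trend, 7 with the replicate term and 0 to 6 with 1 array left out. Spike-in scaling moved the median of all genes to 0.34 (84 higher, 22 lower, against 54 and 52) in loaded healing against loaded control and to -0.40 (18 and 119, against 40 and 45) in unloaded against loaded healing. The interaction split was 251 higher and 80 lower under quantile normalization and 184 and 48 under spike-in scaling, against 237 and 17.

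Without the intensity trend 0 member probe sets were called with limma in loaded healing against loaded control (3 at an unadjusted p under 0.05) and 0 in unloaded against loaded healing (2 unadjusted), against 1 each, and 0 to 1 were called in each when 1 array was left out. The interaction called 1 member, U53859_at, under spike-in scaling and without the trend, against 2. Of 712 uncalled member values under an alternative, 26 had the opposite sign, and 0 called values did. The replicate numbers were not treated as pairs, since not every correlation of replicate differences between groups was over 0.1. It was 0.159 to 0.204 among unloaded healing, loaded healing and loaded controls and 0.000779 to 0.0144 with unloaded controls, and array medians were lower on replicate 1 in all 4 groups, so a shared replicate component was not excluded. A replicate block gave more calls in each contrast, with 123, 102, 443, 393, 7 and 270 calls in the 6 contrasts, in the order of loaded healing against loaded control, unloaded against loaded healing, unloaded healing against unloaded control, unloaded against loaded control, unloaded healing against loaded control and the interaction, and the same member calls.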
